A study of Homo sapiens with 24 samples.

Results

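The reporter assay measured how much RNA a plasmid gave when a fragment of a human 3′ untranslated region (3′ UTR) was placed in its transcript. Described here are the fragments carrying the reference base of their single-nucleotide polymorphism (SNP), as they behaved in an SV40-immortalized microglia line. A fragment was included where its reference oligo had a mean of at least 100 counts over the 6 microglia DNA libraries. This held for 10222 of 11265 reference fragments (90.7%), from 1603 of 1637 genes. The other 1043 fragments fell under that minimum.

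The study transfected a pool of such reporters into microglia and into SH-SY5Y, a human neuroblastoma line, with a lipid reagent, and its title ties the variants to neurological disorders. The microglia gave 2 groups, 6 libraries of reporter DNA and 6 of polyadenylated reporter RNA, and the same 2 groups of 6 libraries in SH-SY5Y served for a comparison of lines. The groups share the pool and the transfection method, and the labels' protocols describe the replicates as independent transfections, so the spread between replicates covers transfection and library preparation within 1 line. Neither line received a further treatment according to the labels, and the sources used here do not say whether the microglia line is a single clone. The counts are of reporter oligos, so the microglial identity of the cells was not checked here.

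The 3′ UTR is the part of a messenger RNA that follows the stop codon. RNA-binding proteins and microRNAs act through it to set how stable a transcript is, how well it is translated and where in the cell it lies, and AU-rich elements in the 3′ UTRs of many inflammatory transcripts are known to shorten their life. Microglia, the resident macrophages of the brain, rely on such control for cytokine transcripts. In a reporter assay a fragment acts outside its own gene, and the level of reporter RNA says nothing about the level of the gene it was taken from. The fragment sequences, the positions of the SNPs and the sequence composition of the 3′ UTRs were not analysed here. Positions given below are those of the gene in GRCh38.p14.

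Activity is the log2 ratio of a fragment's share of all RNA counts to its share of all DNA counts. A value of 0 means that a fragment was as frequent in RNA as in the plasmid pool, and all values are relative to the pool as a whole. Library totals ran from 12154918 to 17570853 counts in DNA and from 7018516 to 10437069 in RNA, with a median count per fragment of 432 to 629 and of 238 to 358. Log2 levels correlated at 0.910 to 0.948 between DNA replicates and at 0.912 to 0.958 between RNA replicates. Every pair of libraries of a group differed beyond counting noise, with a chi-square of at least 6.43 per degree of freedom. RNA replicate 3 stood apart in its narrower spread, with an SD of activity over fragments of 0.44 against 0.51 to 0.61 in the other 5. Microglia libraries also deviated together with the SH-SY5Y library of the same number (r over fragments 0.047 to 0.111 in RNA, highest value with another number 0.023). From such deviations, the share of a microglia library that moved with its pair was estimated at 2.33% to 5.07% in RNA and 6.18% to 15.4% in DNA. Whether such pairs truly had counts in common was not tested.

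Most fragments left reporter RNA near the level of the pool, and the strong effects were reductions. RNA differed from DNA for 2265 fragments (22.2%; edgeR quasi-likelihood test, Benjamini-Hochberg adjusted p under 0.05), against 21.0% of all 10966 reference oligos tested. It was higher for 986 fragments (9.65%, against 9.03% of all tested) and lower for 1279 (12.5%, against 12.0%). A further condition of at least 1.5-fold left 978 fragments, against 9.27% of all tested oligos, with 117 higher (against 1.10%) and 861 lower (against 8.16%). The pool tested consists largely of these same fragments, so the shares are close by construction. Without replicate 3 the number of fragments past the threshold was 1941, with 793 higher and 1148 lower. It was 2004 after the estimated share of the same-numbered SH-SY5Y library was subtracted (830 higher and 1174 lower).

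The distribution of activity had a long lower tail. Its median was 0.03, the central 50% of fragments lay between -0.18 and 0.19, the 1st percentile was at -1.97 and the 99th at 0.61. The extremes were -3.68 and 1.05. Of the fragments past the threshold, 483 from 361 genes were lower by at least log2 1 and 96 from 88 genes by at least log2 2, whereas 1 was higher by at least log2 1. The median of the higher calls was log2 0.39 (1.31-fold) and that of the lower calls -0.77 (1.71-fold). RNA lay below DNA in every library for 800 fragments and above it for 380, where the ranges were separate in 7.40% and 3.47% of all oligos tested.

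How small an effect could be seen depended on the counts behind it. Fragments were split into 4 sets of equal size by their mean DNA count. In the set with 100 to 319 DNA counts the median SD over RNA replicates was 0.37 and the smallest effect past the threshold was log2 0.45. In the set with 901 to 5847 counts these values were 0.15 and 0.15. The share called higher went from 3.36% in the lowest set to 19.2% in the highest, and the share called lower from 8.44% to 17.3%. Reductions of at least 1.5-fold were about equally frequent in the 4 sets, at 8.41%, 7.48%, 8.96% and 8.85% from the lowest counts to the highest. Increases of that size were 1.92%, 1.06%, 0.939% and 0.665%. By the base at the SNP (the strand is not stated), the median was 0.03 for A, 0.04 for C, 0.03 for G and 0.02 for T. The share called higher was 7.86%, 11.5%, 9.42% and 9.46% in that order, and the share called lower 11.8%, 13.1%, 13.2% and 11.6%. These differences between bases were not tested.

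The fragments with the least RNA came from genes of unrelated roles. Levels are given in CPM (counts scaled to a library total of 1000000), and activities as the fitted log2 value ± SD over the 6 RNA replicates. The SD is taken about the mean of the unfitted values and leaves out the spread between DNA libraries. The fragment of NRTN, which encodes the neuronal growth factor neurturin (rs116386264; chromosome 19, 5805067 to 5828324), had 7.02 to 10.7 CPM in DNA (median 8.13) and 0 to 2.45 CPM in RNA (median 0.282). All RNA libraries lay below all DNA libraries, at an activity of -3.68 ± 1.69 (adjusted p = 1.21e-07). The value rests on 35 RNA counts over the 6 libraries. RNA replicate 6 had none, where 3 counts would be 0.427 CPM, and activity was -4.75 without replicate 2. The fragment of NMNAT2, an NAD-synthesizing enzyme that maintains axons (rs579217; chromosome 1, 183248237 to 183418380), had 1.81 to 9.88 CPM in DNA (median 7.65) and 0.107 to 1.85 in RNA (median 0.554). Its highest RNA library overlapped its lowest DNA library (activity -3.01 ± 1.5, adjusted p = 1.76e-05).

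Other fragments of this kind rested on more counts. The fragment of HOXD3, a homeobox transcription factor gene (rs711830; chromosome 2, 176152529 to 176173098), had 80.9 to 101 CPM in DNA (median 87.3) and 5.47 to 17.7 in RNA (median 13.4). Groups were wide apart, at 7.01-fold lower in RNA (-2.81 ± 0.64, adjusted p = 6.6e-19). The fragment of BATF3, a transcription factor of dendritic cell development (rs150587410; chromosome 1, 212686417 to 212699840), had 45.6 to 64.8 CPM in DNA (median 57.3) and 5.19 to 16.5 in RNA (median 8.59). It too was separate in all libraries (-2.58 ± 0.63, 5.98-fold, adjusted p = 2.3e-15). The fragment of GRIN2B, an NMDA receptor subunit gene (rs79882245; chromosome 12, 13537337 to 13982134), had 30.3 to 44.5 CPM in DNA (median 33.0) and 2.23 to 7.49 in RNA (median 4.45), a 7.59-fold reduction with no overlap (-2.92 ± 0.68, adjusted p = 6.74e-15). For NPRL3, a subunit of a complex that restrains mTORC1 (rs2541622; chromosome 16, 85386 to 138673), DNA was at 13.9 to 30.8 CPM (median 28.8) and RNA at 2.42 to 8.24 (median 3.77). These groups were also apart (-2.56 ± 0.60, adjusted p = 7.33e-12).

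Further fragments among the 12 lowest had separate RNA and DNA levels as well, at lower depth and with larger spread. They included fragments of LOC101929705 (rs540635474, -2.95 ± 0.98), MOBP, a myelin protein gene (rs76756883, -2.78 ± 1.53; chromosome 3, 39467680 to 39529497), and C1orf106 (rs296523, -2.68 ± 1.60; chromosome 1, 200891531 to 200915742), now named INAVA, a gene of innate immune signalling. The SNARE-domain gene TSNARE1 (rs79248723; chromosome 8, 142212080 to 142407029) was at -2.59 ± 2.24. The antioxidant enzyme gene GPX1 (rs1050450; chromosome 3, 49357176 to 49358353) was at -2.57 ± 1.58. RNA medians of these 5 fragments lay between 0.976 CPM (C1orf106) and 2.59 CPM (MOBP). TSNARE1 had no count in RNA replicate 5, where 3 counts would be 0.322 CPM.

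Increases of reporter RNA were smaller than the largest reductions and reached 2.06-fold. The highest was a fragment of FBXL18, an F-box protein of a ubiquitin ligase complex (rs182946436; chromosome 7, 5454425 to 5513809). It had 7.61 to 10.7 CPM in DNA (median 8.56) and 13 to 25 in RNA (median 17.5), and every RNA library exceeded every DNA library (1.05 ± 0.39, adjusted p = 0.000229). The smallest adjusted p among the 12 highest was that of PPP2R2D, a regulatory subunit of protein phosphatase PP2A (rs117262064; chromosome 10, 131901008 to 131971533). DNA was at 90.6 to 129 CPM (median 118) and RNA at 190 to 240 CPM (median 224), well apart (0.95 ± 0.12, 1.94-fold, adjusted p = 9.57e-15). For the zinc finger gene ZKSCAN1 (rs10274894; chromosome 7, 100015596 to 100045374) DNA was at 41.1 to 51.2 CPM (median 47.9) and RNA at 71.0 to 104 (median 86.5), without overlap (0.88 ± 0.18, adjusted p = 1.22e-09).

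For IMPAD1, now BPNT2, a Golgi phosphatase gene (rs3739364; chromosome 8, 56957931 to 56993867), DNA was at 22.1 to 36.0 CPM (median 29.7) and RNA at 49.9 to 59.9 (median 54.2). These did not overlap (0.87 ± 0.09, adjusted p = 3.43e-07). Fragments of PGM2L1, a sugar phosphate enzyme gene (rs7941916, 0.95 ± 0.19; chromosome 11, 74330316 to 74398433), and CIDEB, a lipid droplet protein gene (rs59084257, 0.92 ± 0.33; chromosome 14, 24305187 to 24311435), also had separate ranges. RNA and DNA ranges overlapped for the other 6 of the 12 highest. These were BBS9 of the ciliary BBSome (rs6462474, 0.95 ± 0.49; chromosome 7, 33129285 to 33635767), the myelin gene MOG (rs2535243, 0.87 ± 0.42; chromosome 6, 29657092 to 29672365), the synaptotagmin gene SYT4 (rs3744959, 0.85 ± 0.36; chromosome 18, 43267892 to 43277490), CCDC174 (rs61316466, 0.84 ± 0.30; chromosome 3, 14651762 to 14672655), HLA-DQA2 (rs9276439, 0.84 ± 0.28; chromosome 6, 32741391 to 32747198) and the formin gene DIAPH3 (rs339533, 0.84 ± 0.52; chromosome 13, 59665583 to 60163928). DIAPH3 missed the threshold without replicate 1, 2 or 5 (0.36 to 1.11 over the 6 fits) and with DESeq2. It was also missed with the replicate number as a block and after subtraction of the estimated share.

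Each fragment was also present with an alternative base, as an oligo that carried the same fragment but for 1 base and was counted on its own. Over 11701 alternative oligos of 9824 fragments with at least 100 DNA counts, alternative and reference activity had a Pearson correlation of 0.793 and a Spearman correlation of 0.62, and the median absolute difference was log2 0.16. The correlation is across fragments, which share libraries, and has no test. A read with a sequencing error at the SNP could be counted for the other base, and its part in the likeness was not tested. Of 1476 alternatives of fragments called lower, 1375 (93.2%) were below 0, against 45.4% of all alternatives. Of 1172 alternatives of fragments called higher, 1087 (92.7%) were above 0, against 54.6%.

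Strong reductions mostly persisted with the other base. The sets compared here were selected on the reference value, so their alternatives can lie nearer to 0 through that selection. Its part was not tested. Where the reference fragment was lower by at least log2 1, the 541 alternatives had a median of -1.47, beside -1.57 for the reference, and 407 (75.2%) were at or below -1. Where it was lower by at least log2 2, the 108 alternatives had a median of -2.07, beside -2.31 for the reference, 63 (58.3%) were at or below -2 and 5 were above -0.5. For HOXD3 the G oligo was at -2.83 ± 0.63, for BATF3 the G oligo at -2.52 ± 0.53, and for NRTN the C oligo at -2.67 ± 0.68. The A oligo of GRIN2B was at -1.94 ± 0.33. On this measure the reference oligos were at -2.92 for HOXD3, -2.69 for BATF3, -4.44 for NRTN and -3.02 for GRIN2B. Increases of at least 1.5-fold had a median of 0.41 over 129 alternatives, beside 0.68 for the reference, and all but 6 were above 0. The T oligo of PPP2R2D was at 0.84 ± 0.08, the A oligo of FBXL18 rs182946436 at 1.21 ± 0.41 and the C oligo of ZKSCAN1 at 0.85 ± 0.12.

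A minority of low fragments lost the reduction with the other base. The reference fragment of SLC39A8, a zinc and manganese importer (rs151371; chromosome 4, 102251041 to 102345482), had 42.4 to 64.7 CPM in DNA (median 51.0) and 7.30 to 13.4 in RNA (median 10.0), with no overlap (-2.36 ± 0.30), while its A oligo was at 0.41 ± 0.12. The same was seen for RBM26, an RNA-binding protein gene (rs3187338, -1.74 ± 0.12 against 0.04 ± 0.27 for A), TRIM26, a ubiquitin ligase gene (rs7843, -2.09 ± 0.56 against 0.03 ± 0.23 for C), and MAML1, a Notch coactivator gene (rs115034831, -2.51 ± 1.53 against 0.01 ± 0.30 for A). C16orf62, now VPS35L, an endosomal recycling gene (rs116582019, -2.16 ± 0.44 against -0.20 ± 0.10 for A), and the chemokine gene CXCL12 (rs1065297, -1.77 ± 0.40 against -0.31 ± 0.15 for C) were alike. The reference values here are fitted and the alternative values are not. Without the fit the reference oligos were at -2.37 for SLC39A8, -1.73 for RBM26, -2.16 for TRIM26 and -3.04 for MAML1. C16orf62 was at -2.21 and CXCL12 at -1.81 on that measure. These differences between bases are given as values, with no test.

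Fragments of a gene differed from each other far more than genes did. Over 9904 fragments of the 1285 genes with at least 2, the variance component between genes was 1.03% of the variance of activity. Among the 334 genes with at least 10 fragments, gene medians ran from -0.28 to 0.37, and 90% of them lay between -0.14 and 0.16, while the median SD over the fragments of a gene was 0.38. Both higher and lower calls occurred in 211 of these genes, lower calls alone in 69, higher calls alone in 34 and no call in 20. Fragments of a gene can overlap, and the extent of overlap was not analysed here.

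The gene with the most fragments was GRIN2B, with 108, of which 5 were higher and 15 lower (median 0.01). HLA-DPB1, an MHC class II beta chain gene, had 100 (10 higher, 12 lower, median 0.04), and JRK, a gene for a nuclear DNA-binding protein, had 65 (7 higher, 9 lower, median 0.04). Among the lowest medians were those of CDSN, a skin adhesion protein gene (-0.28 over 19 fragments; chromosome 6, 31115087 to 31120446), ANKRD63 (-0.26 over 12), TRAF3, a signalling adaptor of immune receptors (-0.25 over 12), and REEP5, an endoplasmic reticulum shaping protein gene (-0.21 over 18). The highest medians were those of TXNRD2, the mitochondrial thioredoxin reductase (0.37 over 12; chromosome 22, 19875522 to 19941818), ZDHHC8, a palmitoyltransferase (0.36 over 11; chromosome 22, 20131804 to 20148007), C10orf53 (0.27 over 11), SGO1, a protector of chromatid cohesion (0.24 over 10), and INTS7, an Integrator subunit (0.23 over 10). TXNRD2 had 6 fragments called higher and 2 called lower, the latter, at -2.08 ± 0.45 (rs73877384) and -1.59 ± 0.36 (rs58210408).

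Low fragments of 1 gene recurred in a few genes, picked here after their values were seen. LOC101929705 had 7 of 39 fragments at or below -1, C1orf106 6 of 15, and CTSB, the gene of the lysosomal protease cathepsin B, 5 of 30. FBXL18, whose rs182946436 fragment was the highest of all, had 5 of 32 at or below -1, down to -2.54 ± 0.58 (rs61447150). PHF20, a chromatin reader gene, had 4 of 8. Over all fragments 484 of 10222 were at or below -1.

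Gene lists were described by counts only, beside 9.65% higher, 12.5% lower and a median of 0.03 over all fragments. A gene can be on several lists. Fragments of 1 gene are not independent of each other. Where a gene is called low or high in the lists, the words refer to the fragment named and not to the gene as a whole. Fragments named from the lists passed the threshold unless stated, with adjusted p from 2.63e-21 to 0.0422.

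Antigen presentation genes, which load and display peptides to T cells, held calls in both directions. MHC class II genes had 14 of 145 fragments higher and 24 lower (median 0.01). Among them were HLA-DRA, the alpha chain of HLA-DR (rs1051336, 16.9 to 27.2 CPM in DNA and 2.79 to 4.99 in RNA, no overlap, -2.45 ± 0.31), and HLA-DPA1 (rs2071365, 25.0 to 43.7 and 6.65 to 9.49, no overlap, -2.21 ± 0.18). Of the 145, HLA-DPB1 supplied 100 (10 higher, 12 lower) and HLA-DPA1 27 (2 higher, 6 lower). HLA-DPB1 rs934 was at 0.56 ± 0.11 and missed the threshold without replicate 4 or 6 (0.45 to 0.63 over the 6 fits). MHC class I genes had 3 of 25 higher and 2 lower (median 0.02; 4 lower without replicate 6). HLA-B supplied 21 of the 25 and all of these calls (3 higher, 2 lower), with rs71563314 at -1.03 ± 0.25 and rs1093 at 0.50 ± 0.16. Oligos of near-identical HLA genes can share reads. The other genes of peptide processing had 5 of 60 in each direction (median 0.01; 3 lower without replicate 3 or 6). TAP2 supplied 45 of the 60 (4 higher, 3 lower). TAPBP, the peptide-loading chaperone tapasin, held the lowest (rs3130259, -2.32 ± 0.29), and TAP2, the peptide transporter, the highest (rs241455, 0.68 ± 0.23).

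Signalling genes of innate immunity were mixed. Cytokines, chemokines and their receptors had 12 of 104 fragments higher and 10 lower (median -0.02). Without replicate 1 or 4 the higher count was 7, and without replicate 6 the lower count was 6. IL20RB, a cytokine receptor chain, was at -2.13 ± 0.57 (rs108858), and CXCL12, given above, followed. IL6, an inflammatory cytokine, had the 2 highest of those past the threshold, rs2069847 at 0.64 ± 0.22 and rs2069843 at 0.47 ± 0.16, the latter missed after subtraction and with replicate 1, 2, 3 or 4 left out (0.37 to 0.57). Innate immune and interferon signalling genes had 15 of 129 higher and 19 lower (median 0.07). Higher calls were 9 without replicate 2, 6 without replicate 5 and 9 after subtraction of the estimated share. TNFAIP3, an inhibitor of NF-kappaB signalling, was the highest (rs5029956, 39.8 to 59.3 CPM in DNA and 84.0 to 93.5 in RNA, no overlap, 0.75 ± 0.07). The lowest was the C1orf106 fragment given above, and that gene supplied 15 fragments (2 higher, 6 lower). A fragment of TLR10, a Toll-like receptor gene, followed (rs11466663, -2.53 ± 1.40, on 92 RNA counts). TLR10 had 2 of 11 fragments higher and 2 lower (median 0.13). TRAF3 rs74082969 was at 0.54 ± 0.17 and missed the threshold without replicate 1 or 2 (0.40 to 0.65). It was the 1 higher call among 12 fragments of TRAF3, of which 4 were lower.

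Immediate early and AU-rich element genes, whose own transcripts are short-lived, had 8 of 42 fragments higher (19.0%) and 3 lower (median 0.12). The higher count was 5 without replicate 1, 2, 3 or 5, and after subtraction. TNFAIP3 and IL6 held the highest fragments. CCND1, the cyclin D1 gene, held the lowest (rs3212901, -1.36 ± 0.33), and DUSP6, a phosphatase of the kinase ERK, was at -1.25 ± 0.77 (rs704073), while its T oligo was at 0.48 ± 0.38. MAP kinases and dual-specificity phosphatases had 5 of 63 higher and 4 lower (median 0.05), with 2 higher without replicate 1 or 5 and 3 without replicate 3 or after subtraction. MAPK14, the stress kinase p38 alpha, was the highest of those past the threshold (rs3804453, 0.44 ± 0.14). MAP4K4 rs73945513 was at 0.29 ± 0.09 and missed the threshold with TMM scaling, after subtraction and without replicate 1, 2, 3 or 5 (0.23 to 0.35). DUSP15 rs76833217 was at -1.08 ± 0.19.

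Microglia and macrophage genes had 4 of 68 fragments higher and 11 lower (median -0.02). The higher count was 2 with TMM scaling and without replicate 3. SELPLG, a selectin ligand on leukocytes, was lowest (rs8179162, 52.7 to 64.7 CPM in DNA and 17.5 to 29.8 in RNA, no overlap, -1.30 ± 0.28). TREML2, a receptor gene of the TREM cluster, held fragments of both kinds. The rs3800342 fragment was at -1.22 ± 0.47, rs9394766 at 0.43 ± 0.09 and rs112522404 at 0.83 ± 0.25. Complement and MHC class III genes had 9 of 56 higher and 6 lower (median 0.05). They included DXO, an enzyme of RNA cap quality control (rs2075702, -1.86 ± 0.46), TNXB, an extracellular matrix gene (rs451652, -1.45 ± 0.44), and EGFL8 (rs1061808, 0.62 ± 0.21). ATF6B rs8111 was at 0.48 ± 0.12 and missed the threshold without replicate 2, 3, 4, 5 or 6 (0.34 to 0.57) and after subtraction.

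Among genes of neurotransmission, voltage-gated and related ion channels had 11 of 94 fragments higher and 3 lower (3.19%), with a median of 0.09. The higher count was 7 without replicate 1 and 5 without replicate 2. The lowest was a fragment of the potassium channel gene KCNA6 (rs10774276, 47.6 to 66.4 CPM in DNA and 10.7 to 23.6 in RNA, no overlap, -1.67 ± 0.44), and the T oligo of the same fragment was at -1.67 ± 0.25. TRPV5, an epithelial calcium channel, was at -0.56 ± 0.11 (rs4252511; missed without replicate 2, -0.66 to -0.44). TRPM8, the cold-sensing channel, was at 0.58 ± 0.25 (rs28902237) and missed the threshold after subtraction and without replicate 1, 2 or 6 (0.40 to 0.75).

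GABA and glutamate receptor and transporter genes had 10 of 145 higher (6 without replicate 3) and 20 lower (median 0.00), of which GRIN2B supplied 108 fragments. Besides the GRIN2B fragment above, GABBR1, a GABA-B receptor subunit, was low at rs29267 (-1.59 ± 0.50) and high at rs881284 (0.63 ± 0.43), the latter lost without replicate 1, 4 or 6 (0.44 to 0.86). Genes of monoamine, opioid, cannabinoid and cholinergic signalling had 3 of 35 higher and 6 lower (median -0.03). DRD2, the dopamine D2 receptor, was low in every library (rs6276, 149 to 168 CPM in DNA and 33.5 to 60.8 in RNA, -1.67 ± 0.30). CHRNA3, a nicotinic receptor subunit, also had a low fragment (rs8192482, -2.20 ± 0.79), and CHRNB4, of the same receptor family, a high one (rs79845309, 0.79 ± 0.21). The genes as a whole did not differ in this way. CHRNA3 had 0 of 14 fragments higher and 1 lower (median -0.02), and CHRNB4 2 of 13 higher and 3 lower (median -0.16). CHRNB4 rs12593950 was at 0.41 ± 0.33 and missed the threshold with limma, after subtraction and without replicate 1, 2, 3 or 5 (0.32 to 0.55). Synaptic vesicle, scaffold and axon genes had 19 of 156 higher and 16 lower (median 0.05). TSNARE1 rs72687374, at far higher counts than the fragment above, was separate in all libraries (139 to 169 CPM in DNA and 29.2 to 58.6 in RNA, -1.84 ± 0.37). SNAP91, a clathrin adaptor gene of synapses, was at 0.73 ± 0.20 (rs79445663).

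Of all lists, alcohol and aldehyde metabolism had the lowest median. It had 0 of 21 fragments higher and 8 lower (38.1%), with a median of -0.27. The higher count was 1 without replicate 1. The 2 lowest were fragments of ALDH4A1, a mitochondrial enzyme of proline breakdown (chromosome 1, 18871430 to 18902555). At rs3202002 DNA was at 28.9 to 43.1 CPM and RNA at 3.62 to 14.1 (-2.03 ± 0.73), and at rs14311 DNA was at 35.5 to 49.4 and RNA at 4.40 to 21.0 (-1.73 ± 0.76). RNA and DNA did not overlap in either, and the T oligos of both were also low (-1.0 ± 0.56 and -1.31 ± 0.48). ALDH4A1 supplied 10 of the 21 fragments and 4 of the 8 lower calls.

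Genes of transport and organelles had medians close to that of the pool. Solute carriers had 23 of 256 higher and 25 lower (median 0.05). SLC39A8 supplied the 2 lowest, rs151371 above and rs35608353 (54.8 to 72.5 CPM in DNA and 9.83 to 24.4 in RNA, no overlap, -1.91 ± 0.47). SLC4A8, a bicarbonate transporter, was high (rs2292221, 0.67 ± 0.11), as was SLC8A3, a sodium-calcium exchanger (rs17765495, 0.80 ± 0.53; missed without replicate 6, 0.59 to 0.94). Lysosome, endosome and autophagy genes had 17 of 204 higher (11 without replicate 1) and 25 lower (median 0.07). After C16orf62, BIN3, a membrane-bending protein gene, was lowest (rs13439363, -1.88 ± 0.24). VPS13C, a lipid transfer protein (rs3210522, 0.65 ± 0.15), and SNX8, a sorting nexin (rs4719471, 0.55 ± 0.14), were the highest of those past the threshold. Cadherins, integrins and junction proteins had 9 of 118 higher and 15 lower (median 0.01). ITGA11, a collagen-binding integrin, had the smallest adjusted p of the named fragments (rs10851784, 144 to 171 CPM in DNA and 27.5 to 44.5 in RNA, -2.10 ± 0.29, adjusted p = 2.63e-21). JAM3, a junction adhesion molecule, was at -2.16 ± 1.83 (rs11223716; -2.76 with limma), ITGA8 at 0.61 ± 0.13 (rs9333256) and DSG3, a desmosomal cadherin, at 0.83 ± 0.46 (rs181938639; missed without replicate 4, 0.53 to 1.07).

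Genes of RNA and protein turnover also had medians close to that of the pool. RNA-binding, decay and microRNA proteins had 15 of 135 higher and 22 lower (median 0.04). RBM26, given above, was among the lowest. DGCR8, the partner of DROSHA in microRNA processing, was highest (rs417309, 4.42 to 16.7 CPM in DNA and 17.7 to 20.4 in RNA, no overlap, 0.66 ± 0.08), and missed the threshold after subtraction and without replicate 3, 4 or 6 (0.50 to 0.78). MSI2, a Musashi RNA-binding protein, was at 0.55 ± 0.31 (rs73314779; missed without replicate 2 or 4, 0.47 to 0.63). TRIM genes had 19 of 143 higher and 13 lower (median 0.05). TRIM56 was lowest (rs71557293, 25.2 to 49.1 CPM in DNA and 2.45 to 12.6 in RNA, no overlap, -2.21 ± 0.84). TRIM10 was highest (rs2508030, 0.69 ± 0.31), and TRIM38 rs183879 was at 0.62 ± 0.33 (missed without replicate 2, 0.48 to 0.80). Other ubiquitin ligases and deubiquitinases had 20 of 227 higher and 28 lower (median 0.02). Of those past the threshold, the 2 highest and 2 lowest were fragments of FBXL18, including rs4724696 at -2.39 ± 0.93 and rs11769725 at 0.62 ± 0.32, the latter lost without replicate 1 or 5 (0.56 to 0.69). Serine/threonine phosphatase subunits had 8 of 78 higher and 7 lower (4 after subtraction; median 0.05). PPP1R16B was at 0.71 ± 0.29 (rs74728839), PPP1R3B, a glycogen-targeting subunit, at -1.11 ± 0.24 (rs330922), and PPP1R37 at -1.07 ± 0.41 (rs28719739), with its T oligo at -0.08 ± 0.14.

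Genes of the nucleus held calls in both directions. Zinc finger genes, the largest list, had 47 of 504 higher and 63 lower (median 0.01). ZKSCAN1 held both the highest fragment, given above, and the lowest (rs73395910, 33.8 to 45.5 CPM in DNA and 2.30 to 10.9 in RNA, no overlap, -2.53 ± 0.80). ZNF276 was at 0.75 ± 0.45 (rs1061647) and ZNF432 at -2.39 ± 1.30 (rs144731656). Bromodomain, TFIID, chromatin and coactivator genes had 14 of 95 higher and 16 lower (median 0.08). MAML1 was among both the lowest, given above, and the highest (rs73347986, 81.0 to 114 CPM in DNA and 146 to 171 in RNA, no overlap, 0.70 ± 0.08). BRD1 was low (rs111776403, -2.31 ± 0.84) and BRD2 high (rs73409643, 0.73 ± 0.18), both bromodomain genes. Histone genes had 1 of 5 higher (2 without replicate 6) and 0 lower (median 0.24), the higher one being HIST1H4B, now H4C2 (rs3752420, 0.63 ± 0.17). Antisense and long non-coding RNA genes had 8 of 102 higher (5 without replicate 3, 3 without replicate 4) and 13 lower (median 0.09). HCG22 (rs2523845, -2.51 ± 0.92) and LRP4-AS1 (rs12576416, -1.72 ± 1.30) were lowest. HCG20 rs1049943 was at 0.43 ± 0.15 and SAP30L-AS1 rs888979 at 0.34 ± 0.20. HCG20 missed the threshold without replicate 2 or 4 (0.30 to 0.58), SAP30L-AS1 without replicate 1, 2, 4 or 6 (0.28 to 0.42).

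Lists of disease genes can be read against the same background. Alzheimer disease genes had 10 of 154 higher and 29 lower (18.8%; median 0.05). CTSB supplied 30 of these fragments (3 higher, 10 lower) and TREML2 14 (2 higher, 5 lower). The lowest were PTK2B, a calcium-activated tyrosine kinase (rs2280375, 58.6 to 69.3 CPM in DNA and 11.5 to 21.9 in RNA, no overlap, -2.05 ± 0.35), and CTSB (rs71518539, 77.7 to 90.1 and 13.7 to 34.0, no overlap, -1.84 ± 0.46). The G oligo of PTK2B was at -1.84 ± 0.23 and the A oligo of CTSB at -0.40 ± 0.13. MAPT, the gene of the microtubule protein tau, was high at rs73317038 (0.54 ± 0.10) and low at rs1052594 (-0.97 ± 0.41). Parkinson disease genes had 31 of 326 higher and 53 lower (16.3%; median 0.05). After HLA-DRA, ARHGAP27, a GTPase-activating protein gene, was lowest (rs1230095, -2.31 ± 0.49). NUCKS1, a nuclear DNA-binding protein gene, was high (rs3805, 0.80 ± 0.21). ALS and frontotemporal dementia genes had 5 of 81 higher (3 without replicate 5) and 4 lower (median 0.08), with MOBP rs76756883, given above, the lowest and MAPT rs73317038 the highest. MOBP rs816492 was at 0.48 ± 0.15. Schizophrenia, bipolar and depression risk genes had 31 of 447 higher and 53 lower (median 0.01). Autism and epilepsy genes had 10 of 160 higher and 20 lower (median -0.01). GRIN2B is on both of these last lists and supplied 108 fragments to each (5 higher, 15 lower).

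The last comparison asks where a fragment acted differently in microglia and in SH-SY5Y. Across the 10222 fragments the activities of the 2 lines had a Pearson correlation of 0.681 and a Spearman correlation of 0.516, a description over fragments of 1 pool. Same-numbered libraries of the lines deviated together, as given above. The part of this in the likeness of the lines was not tested. Of the 1279 fragments lower in microglia 457 were called lower in SH-SY5Y (35.7% of the microglia calls and 87.2% of the 524 SH-SY5Y calls), and 1185 had the same sign. The median activity of the 1279 in SH-SY5Y was -0.60. Of the 986 higher fragments 173 were called higher in SH-SY5Y (17.5%, and 59.0% of 293), and 847 had the same sign. Over all 10222 fragments, 524 were called lower and 293 higher in SH-SY5Y. The share of all fragments on each side of 0 in SH-SY5Y was not taken. Calls were opposite for 2 of the lower and 0 of the higher fragments. The spread between replicates was known to differ between the lines, and the power of the 2 tests was not compared. A fragment with no call in SH-SY5Y is therefore not shown to be inactive there.

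The difference between lines itself passed the threshold for 53 fragments, 18 with higher and 35 with lower activity in microglia (edgeR interaction test over 24 libraries). Of all 10948 oligos tested 0.548% passed, 0.228% higher and 0.320% lower. At an unadjusted p under 0.05 there were 958 of the 10222 fragments. On simulated counts this test recovered 11% of true differences of log2 0.5 and 50% of those of log2 1. The test of microglia activity recovered 48% and 89%. Fragments that did not pass are therefore not shown to act alike in the 2 lines. The main test treated all libraries as independent, although same-numbered libraries of the lines deviated together, as given above. The part of this in the differences was not tested. The count of fragments that passed rested on the libraries and the scaling. It was 24 to 50 with 1 replicate number left out in both lines, at 27, 31, 50, 30, 31 and 24 without replicate 1 to 6. With TMM scaling 14 were higher and 85 lower, and with DESeq2 39 and 151.

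The clearest difference was at TREML2 rs112522404 (chromosome 6, 41189749 to 41201149). In microglia DNA was at 30.6 to 45.3 CPM (median 37.3) and RNA at 50.9 to 81.5 (median 68.9). In SH-SY5Y DNA was at 35.4 to 42.5 CPM (median 38.6) and RNA at 330 to 440 (median 386). RNA exceeded DNA in every library of both lines, by far more in SH-SY5Y (activity 0.83 ± 0.25 against 3.33 ± 0.16; difference -2.50, adjusted p = 2.68e-14). Activity in microglia was 0.51 after subtraction of the share estimated for the same-numbered SH-SY5Y libraries, still past the threshold.

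TMEM179B, a transmembrane protein gene (rs2584916; chromosome 11, 62787402 to 62790400), was lower in microglia RNA without overlap (41.5 to 71.9 CPM in DNA, 14.1 to 23.8 in RNA, -1.62 ± 0.31). In SH-SY5Y its ranges, 44.1 to 58.6 in DNA and 57.3 to 81.9 in RNA, overlapped (0.35 ± 0.19, adjusted p = 0.0986), and the difference was -1.96 (adjusted p = 3.53e-07). ITGA11 rs10851784 was low in both lines but lower in microglia (difference -0.99, adjusted p = 0.000391). PPP2R2D rs117262064 was at 0.95 ± 0.12 in microglia and 0.25 ± 0.27 in SH-SY5Y (difference 0.70, adjusted p = 0.00638). Other fragments lower in microglia were those of ADAMTS14, a secreted protease gene (rs75465280, -2.35 ± 0.37 against -0.46 ± 0.99; difference -1.89, missed without replicate 1, 2, 3, 5 or 6, with limma and with the replicate number as a block), TAF6, a subunit of TFIID (rs13309, -0.99 ± 0.45 against 0.50 ± 0.46; -1.49, missed without 5 or 6), and RASIP1, a vascular Ras-interacting protein gene (rs77294797, -0.84 ± 0.66 against 0.63 ± 0.46; -1.47, missed without 1, 2, 3, 4 or 5). Over the 6 fits these differences ran from -2.18 to -1.64, from -1.69 to -1.26 and from -1.71 to -1.30.

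In the other direction, fragments that had little RNA in SH-SY5Y were near the pool in microglia. For CARF, a calcium-responsive transcription factor gene (rs6736831; chromosome 2, 202912275 to 202988263), microglia DNA was at 6.17 to 14.1 CPM (median 8.41) and RNA at 4.35 to 9.69 (median 7.36), with overlap. In SH-SY5Y DNA was at 4.99 to 6.99 CPM (median 5.79) and RNA at 0.331 to 0.765 (median 0.482), wide apart. Activity was -0.31 ± 0.41 in microglia and -3.51 ± 0.41 in SH-SY5Y (difference 3.20, adjusted p = 0.000391). Differences of this kind were also past the threshold for ACSM1, a fatty acid-CoA ligase gene (rs184132949, 2.29), NQO1, a quinone reductase gene (rs35936271, 2.09), SPTSSB, of sphingolipid synthesis (rs163327, 1.41), and IP6K2, an inositol phosphate kinase gene (rs72929172, 1.37). None of these 4 was past the threshold within microglia (adjusted p = 0.222 to 0.74). The minimum of 100 counts was set on microglia DNA only. In SH-SY5Y, DNA was at 1.41 to 2.79 CPM for ACSM1 and 2.72 to 5.07 for NQO1. Microglia DNA was at 8.59 to 16.9 CPM and 14.0 to 16.3 for the same fragments. The SH-SY5Y RNA medians were 0.298 and 0.782 CPM. The reason for the lower DNA levels was not tested. ACSM1 missed the threshold for the difference without replicate 1, 4, 5 or 6 (2.13 to 2.43), NQO1 without 1, 3, 4, 5 or 6 (1.83 to 2.38), SPTSSB without 1, 2, 3, 4 or 5 (1.24 to 1.59) and IP6K2 without 1, 4, 5 or 6 (1.23 to 1.59). ACSM1, NQO1 and SPTSSB also missed it with limma, and ACSM1 and NQO1 with the replicate number as a block.

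At the edge of the minimum of 100 mean DNA counts, activity per replicate was wide. Just inside, CAMKMT rs61663126 (100 counts) ran from -0.49 to 1.79 and MAP10 rs10910626 (100 counts) from -1.46 to -0.25. Just outside, CAMKMT rs117429999 (99.7 counts) ran from -1.48 to 0.56 and MGAT4A rs72825708 (99.8 counts) from -2.84 to 1.0.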

How the data were processed

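The deposited table holds counts per oligo and library with no scaling for depth, with 1 column for the reference and 1 for the alternative base. The build was hg38, and reads went through SAMtools 1.10, Bowtie2, UMI-tools 1.0.0 and cutadapt 2.7 in an order that is not stated, per the submitters' processing notes. Per the labels' protocols RNA carried a molecular identifier. The sources used here do not say whether DNA counts were collapsed the same way or how mismatched reads were treated. If reads were not collapsed, counts exceed the number of molecules.

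Reference counts were read once per gene and SNP. RNA was compared with DNA by edgeR 4.0.16 (R 4.3.3; glmQLFTest, two-sided) over the 12 microglia libraries, with the total of all oligos as library size. Reference oligos with a mean of at least 10 DNA counts entered, 10966 in all, and p-values were adjusted over these at a threshold of 0.05. The difference between lines was the interaction term over 24 libraries (10948 oligos). The ± values are SDs over RNA replicates against the mean log2 level in DNA (pseudocount 0.5). Activities of alternative oligos are means of these log2 values, with no fit. The alternatives were TMM, reference totals, DESeq2 1.42.0, limma 3.58.1, other filters, a replicate block and each replicate left out. Another, chosen after seeing the data, was subtraction of the share estimated for the same-numbered SH-SY5Y library. The code was tested on simulated data.

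Fragments were named by a rule: the 12 highest and 12 lowest past the threshold whose 6 replicates shared a sign, 1 per gene and direction; the 2 highest and 2 lowest called per list; genes with at least 10 fragments and the 5 highest and 5 lowest medians, and the 3 with the most fragments; and the 5 largest line differences in each direction. Some of those it selects are not reported here. The fragments and lists were chosen with earlier results of these data known. Symbols were matched to RefSeq (GRCh38.p14), where 1517 of the 1603 genes were current, 73 were older symbols of 1 gene, 4 of several and 9 unmatched. The planned description of 3′ UTR composition was not run, since it needs a genome that was not used here.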

Additional observations from a re-analysis of the deposited data

Results flagged for a closer look

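In 5 of 125 named fragments 1 replicate lay far from the other 5, where chance alone gives about 1 in 20 groups. The highest replicate was at 1.97 for DIAPH3 rs339533 (others from 0.56 to 1.04), at 1.83 for SLC8A3 rs17765495 (others from 0.38 to 0.71) and at 1.12 for SNAP91 rs79445663 (others from 0.57 to 0.71). The lowest replicate was at -7.55 for TSNARE1 rs79248723, which had no count there (others from -2.96 to -1.56), and at -5.23 for ZNF432 rs144731656 (others from -2.47 to -1.68).

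For 14 named fragments activity differed between microglia and SH-SY5Y by the interaction test. It was higher in microglia for CARF rs6736831 (3.20), ACSM1 rs184132949 (2.29), NQO1 rs35936271 (2.09), SPTSSB rs163327 (1.41), IP6K2 rs72929172 (1.37), PPP2R2D rs117262064 (0.70) and SLC4A8 rs2292221 (0.58). It was lower in microglia for TREML2 rs112522404 (-2.50), TMEM179B rs2584916 (-1.96), ADAMTS14 rs75465280 (-1.89), TAF6 rs13309 (-1.49), RASIP1 rs77294797 (-1.47), SLC39A8 rs35608353 (-1.04) and ITGA11 rs10851784 (-0.99).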

How the results depend on the processing

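The number of fragments past the threshold in microglia was 2242 to 2457 under TMM, reference totals, DESeq2, limma, no filter and a minimum of 100 counts, and none changed direction. A lower or higher minimum of DNA counts gave 2291 or 2156. It was 1941 to 2078 with 1 replicate left out and 2004 after subtraction of the estimated share. A requirement of at least 1.5-fold left 978 fragments, 117 of them higher. Of 120 named fragments past the threshold, 20 missed it under some setting and none reversed. Of the counts per list 30 moved by over 1.5 times and 810 did not. The likeness of reference and alternative oligos (r = 0.793) was 0.772 to 0.838 over its alternatives.

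Replicate numbers paired DNA with RNA only weakly. Deviations of same-numbered libraries correlated at 0.017 to 0.051, against at most 0.020 with another number. Of 6 RNA libraries, 5 correlated best with the DNA of their own number. With the replicate number as a block 2301 fragments passed (1002 higher, 1299 lower). The line difference then passed for 35 fragments, 23 of them lower in microglia. The line difference was not fitted again after subtraction of the share estimated for the same-numbered SH-SY5Y library. How far the pairing of same-numbered libraries across lines bears on the line difference was therefore not tested. Of the named fragments DIAPH3 missed the threshold in the blocked fit for activity, and ADAMTS14, ACSM1 and NQO1 in that for the line difference.

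The line difference (53 fragments, 18 higher and 35 lower) depended on the setting. TMM gave 99, of which 85 were lower. DESeq2 gave 190, with 39 higher and 151 lower. With 1 replicate left out it was 24 to 50, with 8 to 16 higher and 16 to 34 lower. The cause was not tested. Depth limits small effects: among fragments with 100 to 319 DNA counts, no effect under log2 0.45 passed.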
